A study of Mus musculus with 27 samples.

Results

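Axin2, Rnf43, Znrf3 and Apcdd1 are negative feedback genes of the canonical Wnt pathway, and their RNA was followed in 9 mouse mammary tumour cell lines grown without cytokine, with Wnt3a or with TGFβ. The 4 genes were taken by name from a table of 24454 genes, and all 4 were among the 13270 genes that reached at least 1 count per 1000000 assigned reads (CPM) in at least 2 libraries. The lines came from thoracic mammary tumours of 12-week-old female MMTV-PyMT mice, an FVB/N model in which the mammary tumour virus promoter drives the polyoma middle T oncogene. All 9 lines carried mutant alleles of Bcl9 and Bcl9L (B9/B9L), the coactivators that join β-catenin to Pygopus. The ΔHD1 mutants have lost Pygopus binding and the ΔHD2 mutants have lost β-catenin binding. The second allele of the ΔHD1/fl and ΔHD2/fl lines was wild type and floxed. It was absent from the recombined lines, ΔHD1/- and ΔHD2/-, which had been infected with an adenovirus expressing Cre and GFP and sorted for GFP. The methods also describe a control virus carrying GFP alone, with the same sort, and whether the fl lines of these libraries had received it is not given in the sources used here. Lines with wild-type B9/B9L were not analysed here. There were 2 lines of each genotype and 3 of ΔHD2/-, described in the labels as derived from different mice. Each line gave 1 library after 4 days without cytokine, 1 after 3 days of Wnt3a at 100 ng/ml and 1 after 4 days of TGFβ at 2 ng/ml, which makes 27 libraries in 12 groups. The labelled time of the Wnt3a libraries thus differed from that of the untreated ones, although per the labels plating and RNA isolation were shared.

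Wnt ligands bind Frizzled and Lrp receptors and thereby stop the destruction complex from degrading β-catenin, which then enters the nucleus and activates genes with TCF/LEF factors. Several of the induced genes act back on the pathway. Axin2 is a scaffold of the destruction complex. Rnf43 and Znrf3 are related membrane ubiquitin ligases that remove Frizzled receptors from the cell surface and are themselves held back by R-spondins. Apcdd1 is a membrane glycoprotein that binds Wnt and Lrp proteins and inhibits signalling.

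Depth was 21.86 to 33.69 M assigned reads per library (median 25.96 M, with 1 M being 1000000 reads). The upper limit left by a gene with no read, 3 reads, was equal to 0.089 to 0.137 CPM and covers counting error only. ΔHD2/- lines 2 and 3 resembled each other more than other replicates did, with correlations of 0.993 to 0.997 under the 3 conditions, against 0.807 to 0.957 for the other pairs of replicates. The main results that rest on them are also given with both lines averaged. The epithelial label was checked with 13 markers. In ΔHD1/fl line 2 and ΔHD1/- line 2 E-cadherin (Cdh1) was at 0.522 and 0.237 CPM without cytokine, against 606 to 1140 CPM in the other 7 lines. Epcam was at 0.0746 and 0 CPM there, against 263 to 910 CPM. The summed level of the 13 markers without cytokine was 1.83 CPM in ΔHD1/fl line 2, 1090 CPM in ΔHD1/- line 2 and 2970 to 7250 CPM in the others. Nearly all of the sum in ΔHD1/- line 2 was the keratin Krt8, at 1090 CPM. That was within the 601 to 1510 CPM of the 7 lines that expressed E-cadherin, while ΔHD1/fl line 2 held 0.336 CPM of Krt8. These 2 lines thus differed in this epithelial marker. The fibroblast list of 9 genes summed to 2650 and 6470 CPM in those 2 lines and to 1.05 to 220 CPM in the others, and the mesenchymal gene Vim was at 4190 and 3680 CPM there against 2.48 to 761 CPM. The whole mesenchymal list of 11 genes differed less, with sums of 21000 and 15600 CPM there against 4910 to 12600 CPM. Pdgfra, a receptor typical of fibroblasts, was at 416 and 629 CPM without cytokine in those 2 lines and at 0 to 15.4 CPM in the other 7. The lowest Vim levels without cytokine, 2.48 and 2.6 CPM, were those of ΔHD2/- lines 2 and 3. The fibroblast marker Dcn did not exceed 2.73 CPM and the leukocyte marker Ptprc did not exceed 0.252 CPM in any library. The TGFβ target list of 10 genes summed to 2950 to 10700 CPM with TGFβ and to 749 to 1810 CPM without cytokine.

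In the mouse genome (GRCm38, also called mm10) Axin2 (Entrez 12006) lies on chromosome 11 from 108917828 to 108950783 on the plus strand. Rnf43 (207742) lies on chromosome 11 from 87663087 to 87735539 on the plus strand, and Znrf3 (407821) on chromosome 11 from 5276329 to 5444847 on the minus strand. The antisense gene Gm11670 overlaps Axin2, and the noncoding genes Gm25968 and 1110028F11Rik overlap Rnf43. The libraries were stranded, but whether strand was used in counting is not given in the sources used here. The exons of the coding transcripts span 4.26 kb for Axin2, 4.54 kb for Rnf43, 7.66 kb for Znrf3 and 1.89 kb for Apcdd1.

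The RefSeq promoter table of the GRCm38.p6 assembly held windows for Axin2 and Rnf43, 2 of the 4 genes. The windows reach from 250 bases before a transcription start to 50 after it. The 250 bases before the start are shown for Axin2, the gene with the largest response to Wnt3a of the 4, before a start at 108920349 that lies inside the gene span given above, and for the first of 2 Rnf43 starts as the contrasting weakly expressed gene. Capitals mark the Smad-type letters CAGAC or their reverse complement GTCTG.
Axin2, chr11:108920099-108920348, plus strand: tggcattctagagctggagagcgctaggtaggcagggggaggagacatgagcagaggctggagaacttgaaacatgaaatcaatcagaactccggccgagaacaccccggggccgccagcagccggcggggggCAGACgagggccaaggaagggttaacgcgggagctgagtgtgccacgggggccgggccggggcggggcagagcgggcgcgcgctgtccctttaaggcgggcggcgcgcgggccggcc
Rnf43, chr11:87662837-87663086, plus strand: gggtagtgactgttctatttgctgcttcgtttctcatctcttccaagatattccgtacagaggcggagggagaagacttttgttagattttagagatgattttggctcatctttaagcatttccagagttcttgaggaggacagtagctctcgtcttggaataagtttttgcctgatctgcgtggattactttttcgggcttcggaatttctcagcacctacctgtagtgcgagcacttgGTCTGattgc

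Both strands of the 300-base windows were searched. The TCF/LEF core letters CTTTGA, and CTTTGAT which contains them, were in none of the 3 windows. Over all 32851 windows of the table, 16.0% held CTTTGA and 3.73% held CTTTGAT. Each of the 3 windows held 1 CAGAC, a motif present in 49.6% of all windows, and none held the palindrome GTCTAGAC, present in 0.213%. The Axin2 window was 70.0% G and C, and the Rnf43 windows were 46.7% and 44.3%. These letter matches describe the windows only.

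Expression without cytokine was compared per kilobase of exon. The median over the 9 lines was 5.96 CPM per kb for Apcdd1, 4.54 for Znrf3, 0.222 for Rnf43 and 0.16 for Axin2. Apcdd1 ranged over lines from 0.0239 to 14.2 CPM per kb and Znrf3 from 3.83 to 7.72, so that these neighbours in the order overlapped. Rnf43 ranged from 0 to 0.481 CPM per kb and Axin2 from 0.0308 to 0.698, and these overlapped as well. Znrf3 exceeded Axin2 and Rnf43 in each of the 9 lines. With Wnt3a the order changed, and the medians per kb were 10.3 CPM for Apcdd1, 7.71 for Axin2, 5.72 for Znrf3 and 0.292 for Rnf43. These medians pool lines that differed in order, since Axin2 per kb was above Znrf3 in all 4 fl lines (13.5 to 19.0 against 3.41 to 8.67 CPM per kb) and below it in all 5 recombined lines (3.16 to 7.71 against 4.37 to 9.16). Apcdd1 with Wnt3a ranged from 0.022 to 17.8 CPM per kb and overlapped both. With TGFβ the medians were 4.93 CPM per kb for Znrf3, 3.7 for Apcdd1, 0.167 for Rnf43 and 0.108 for Axin2. There Znrf3 (3.18 to 8.04 CPM per kb) and Apcdd1 (0.0588 to 41.7) overlapped over lines, as did Rnf43 (0 to 0.294) and Axin2 (0.0266 to 0.439).

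**Figure D1:**
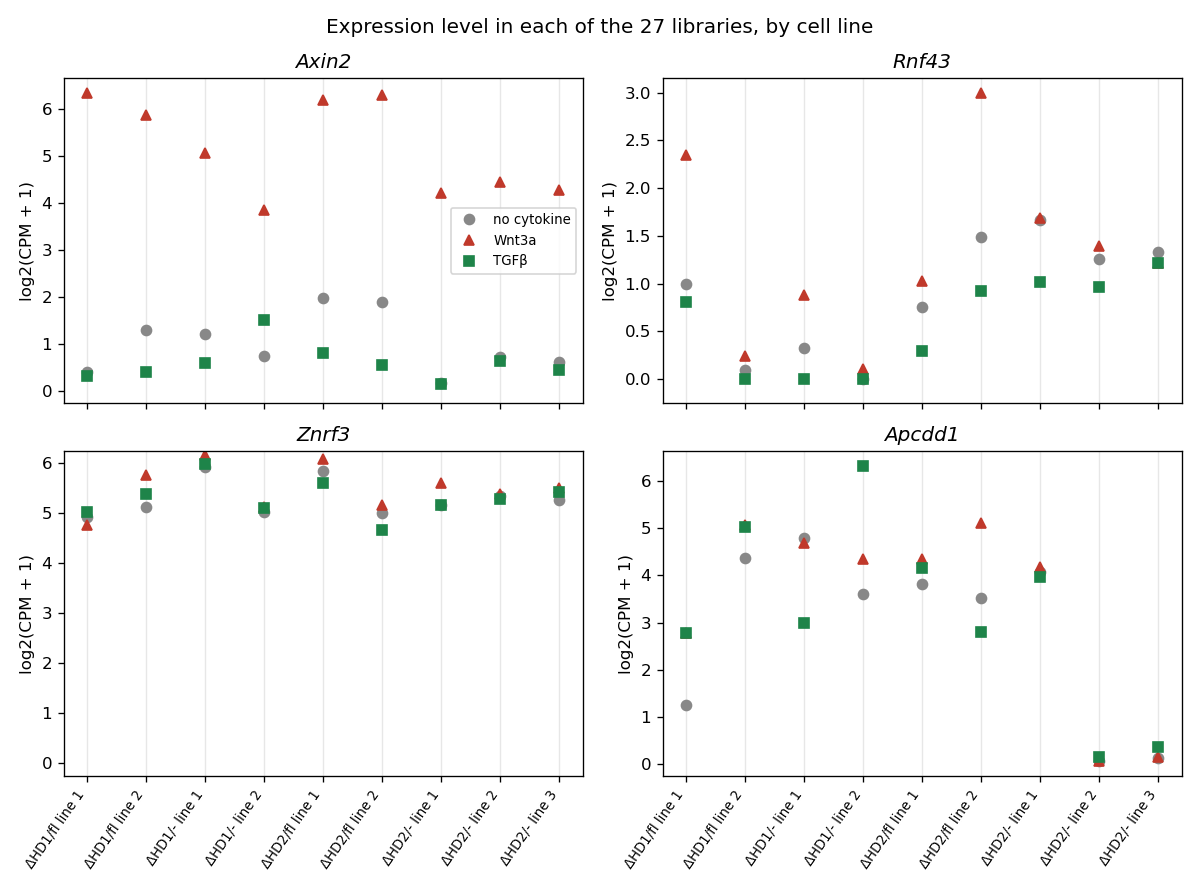
Level of each gene as log2(CPM + 1) in each of the 27 libraries, by cell line on the horizontal axis and by treatment (circle, no cytokine; triangle, Wnt3a; square, TGFβ). Axin2 with Wnt3a stands above the other 2 conditions in all 9 lines, Znrf3 lies in a narrow band, and Apcdd1 is near 0 in ΔHD2/- lines 2 and 3.

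The first question was whether Wnt3a raised the feedback genes in these lines. Axin2 rose in every line. Without cytokine it was at 0.32 and 1.45 CPM in ΔHD1/fl lines 1 and 2, 1.33 and 0.683 CPM in ΔHD1/- lines 1 and 2, 2.97 and 2.7 CPM in ΔHD2/fl lines 1 and 2, and 0.131, 0.675 and 0.544 CPM in ΔHD2/- lines 1 to 3. With Wnt3a the same lines, in the same order, reached 80.8, 57.4, 32.9, 13.5, 72.7, 78.0, 17.7, 21.0 and 18.4 CPM. In bulk RNA such a change cannot be told apart from a change in the share of cells that express the gene. The lowest level with Wnt3a, 13.5 CPM in ΔHD1/- line 2, was above the highest level without it, 2.97 CPM in ΔHD2/fl line 1.

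The within-line ratio of Wnt3a to no cytokine for Axin2 ranged from 19.7 to 252 with a median of 30.0 in the 8 lines with more than 3 untreated reads. The ratio of 252 in ΔHD1/fl line 1 rested on 7 untreated reads (95% exact counting interval 122 to 628). In ΔHD2/- line 1, with 3 untreated reads against 460, the ratio was 135 (46 to 658). On the log2(CPM + 1) scale, which understates changes of low genes, the mean within-line difference of Axin2 was 4.17 ± 0.8 (SD, n = 9 lines, exact two-sided sign-flip permutation p = 0.00391, the smallest p 9 lines allow). The limma estimate, as the mean over the 4 genotypes, was 4.22 ± 0.19 (SE, Benjamini-Hochberg adjusted p = 7.26e-10 over 13270 genes). A gene was called at an adjusted p of at most 0.05 and a log2 difference of at least 1 in size. Axin2 was 1 of only 3 genes so called, 0.0226% of those tested, or 1 of 32 when the fit included cell line as a block.

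Within each genotype the Axin2 response to Wnt3a was also called by limma. It was 5.26 ± 0.41 (SE) in ΔHD1/fl (adjusted p = 3.28e-06), where 0.0151% of genes were called. In ΔHD1/- it was 3.48 ± 0.41 (adjusted p = 0.00164), with 0.00754% called. In ΔHD2/fl it was 4.31 ± 0.41 (adjusted p = 2.38e-05), with 0.113% called. The ΔHD2/- lines gave 3.8 ± 0.33 (adjusted p = 2.2e-05), again with 0.00754% called. Axin2 was thus the single gene called in each of the recombined genotypes. With only the compared libraries in the fit, none of these 4 calls was kept (adjusted p from 0.0885 to 1), although the estimates did not move. The ΔHD1/- call also rested on line 1, without which the estimate was 3.11 with an adjusted p of 0.107.

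Rnf43 was expressed at very low levels and responded unevenly to Wnt3a. Without cytokine it was at 1.01 and 0.0746 CPM in ΔHD1/fl lines 1 and 2, 0.257 and 0 CPM in ΔHD1/- lines 1 and 2, 0.69 and 1.81 CPM in ΔHD2/fl lines 1 and 2, and 2.18, 1.4 and 1.51 CPM in ΔHD2/- lines 1 to 3. In the same order its levels with Wnt3a were 4.09, 0.178, 0.839, 0.081, 1.05, 7.02, 2.23, 1.62 and 1.32 CPM. The clearest increases were in ΔHD1/fl line 1, 4.06-fold with a 95% exact counting interval of 2.57 to 6.71, and in ΔHD2/fl line 2, 3.87-fold (2.81 to 5.42). In the 3 ΔHD2/- lines, which had the highest untreated levels apart from ΔHD2/fl line 2, the ratios were 1.02, 1.16 and 0.878, each with an interval that included 1. The 2 lines near 0 for E-cadherin were also the 2 lowest lines for Rnf43 without cytokine and with Wnt3a, with at most 5 reads in each of their libraries. The part of the cell state in this level was not tested.

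Over the 9 lines the mean within-line difference of Rnf43 with Wnt3a was 0.44 ± 0.59 (SD), higher in 8 of 9 lines (exact sign-flip permutation p = 0.0117, or 0.0469 without the 2 lines near 0 for E-cadherin). It was not called by limma, whose main fit had no line block, with 0.49 ± 0.29 (SE) and an adjusted p of 1. The lowest adjusted p over all alternatives was 0.164. Between Wnt3a and TGFβ directly, the limma difference of Rnf43 was 0.79 ± 0.29 (adjusted p = 0.08), in a comparison in which 5.19% of genes were called. There edgeR's quasi-likelihood test on the recovered reads did call Rnf43, with an adjusted p of 0.0461 (0.00153 to 0.234 over all alternatives). Its log2 fold change of 3.11 depends on the prior count, since all ΔHD1/- libraries with TGFβ held 0 reads.

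Znrf3, the partner of Rnf43 in Frizzled turnover, was expressed well and changed little. Its level without cytokine was between 29.4 and 59.1 CPM (median 34.8), and with Wnt3a between 26.1 and 70.2 CPM (median 43.8), so that the ranges overlapped almost fully. Within lines the ratio of Wnt3a to no cytokine was above 1 in 8 of 9 lines, with a median of 1.17. It was highest in ΔHD1/fl line 2, where Znrf3 went from 33.7 to 53.3 CPM (1.58-fold, 95% exact counting interval 1.45 to 1.72). ΔHD1/fl line 1, the line with the largest Axin2 and Rnf43 ratios, went the other way, from 29.4 to 26.1 CPM. The mean within-line difference of Znrf3 was 0.21 ± 0.23 (SD, exact sign-flip permutation p = 0.0234), and it was 0.17 ± 0.18 over the 7 lines that expressed E-cadherin (exact permutation p = 0.0625). Limma gave 0.21 ± 0.21 (SE) with an adjusted p of 1, and the lowest adjusted p over all alternatives was 0.23.

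Apcdd1 (Entrez 494504, chromosome 18 from 62922327 to 62953815 on the plus strand) differed most among lines. Without cytokine it was at 1.37 and 19.5 CPM in ΔHD1/fl lines 1 and 2, 26.9 and 11.2 CPM in ΔHD1/- lines 1 and 2, and 13 and 10.5 CPM in ΔHD2/fl lines 1 and 2. In ΔHD2/- line 1 it was at 15.9 CPM, and in ΔHD2/- lines 2 and 3 at 0.045 and 0.0837 CPM. These last 2 lines held 1 to 7 Apcdd1 reads in each of their 6 libraries, so no fold is given for them. With Wnt3a the levels of the other 7 lines, in the same order, were 5.86, 32.6, 24.9, 19.4, 19.4, 33.6 and 17.0 CPM. The Apcdd1 ratio to no cytokine was largest in ΔHD1/fl line 1 (4.27, 95% exact counting interval 2.9 to 6.51) and ΔHD2/fl line 2 (3.19, 2.79 to 3.67), the same 2 lines in which Rnf43 increased most. In the 4 fl lines it ranged from 1.49 to 4.27, and in the 3 recombined lines with a ratio it was 0.925, 1.72 and 1.07.

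The mean within-line difference of Apcdd1 with Wnt3a was 0.57 ± 0.64 (SD, 7 of 9 lines higher, exact sign-flip permutation p = 0.0312). Of these 7, ΔHD2/- line 3 held 2 untreated reads against 3. Without the 2 lines near 0 for E-cadherin the difference was 0.52 ± 0.74 (exact permutation p = 0.125). Limma did not call it (0.64 ± 0.81 SE, adjusted p = 1, lowest adjusted p over all alternatives 0.386). Thus 1 of the 4 genes was called in the mean response to Wnt3a. A total of 12 within-line means were tested, and their exact p-values are given without adjustment. With ΔHD2/- lines 2 and 3 averaged, which leaves 8 lines, the exact sign-flip permutation p for Wnt3a was 0.00781 for Axin2 and Rnf43 and 0.0391 for Znrf3 and Apcdd1.

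**Figure D2:**
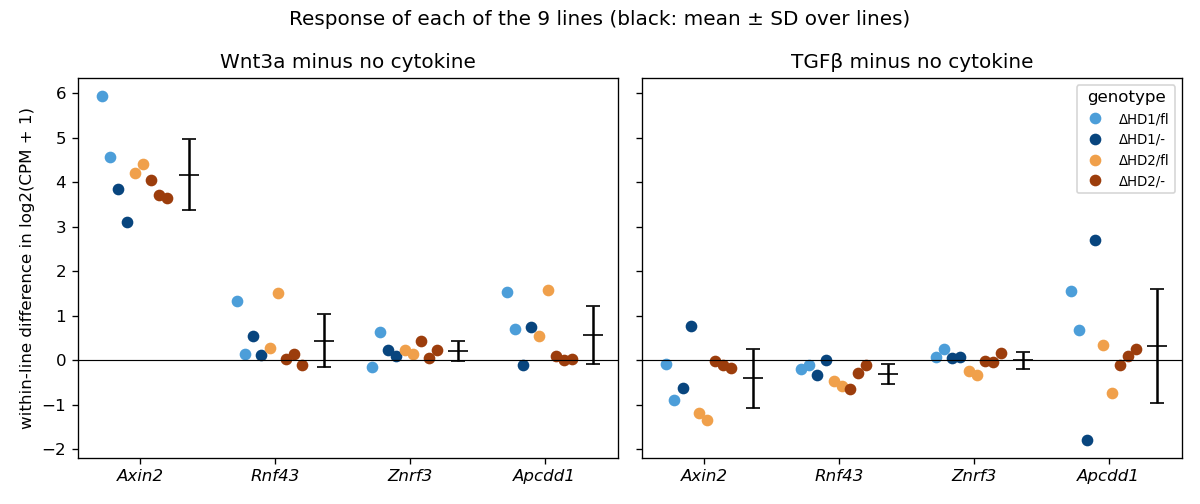
Within-line difference in log2(CPM + 1) from the untreated library for Wnt3a (left) and TGFβ (right), 1 point for each of the 9 lines, coloured by genotype, with the mean ± SD over lines in black. Axin2 with Wnt3a lies between 3.11 and 5.95, and Apcdd1 with TGFβ spreads from -1.8 to 2.7.

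The second question was how the same genes responded to TGFβ, which drives epithelial-mesenchymal transition in such cells. Under TGFβ, 5.42% of all genes were called, and the median log2 difference of all genes was -0.16, or -0.02 after median-of-ratios scaling. None of the 4 genes was called. Axin2 with TGFβ was at 0.252 and 0.32 CPM in ΔHD1/fl, 0.516 and 1.87 CPM in ΔHD1/-, 0.756 and 0.462 CPM in ΔHD2/fl, and 0.114, 0.555 and 0.375 CPM in ΔHD2/-, each in line order. Its CPM was lower than without cytokine in 8 of 9 lines, but 2 of these held equal reads in both libraries (3 in ΔHD2/- line 1 and 15 in ΔHD2/- line 2) and ΔHD1/fl line 1 held 7 untreated reads against 6. The interval of the ratio also included 1 in ΔHD2/- line 3 (13 untreated reads against 9). In these 4 lines a decrease was not detectable at this depth. The decrease exceeded counting error in ΔHD2/fl lines 1 and 2, ΔHD1/fl line 2 and ΔHD1/- line 1, with ratios of 0.254, 0.171, 0.22 and 0.389. The 95% exact counting intervals were 0.146 to 0.423, 0.0868 to 0.311, 0.0936 to 0.461 and 0.187 to 0.766, in the same order. ΔHD1/- line 2 went the other way (2.74, interval 1.65 to 4.69).

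Over the 9 lines the mean within-line difference of Axin2 with TGFβ was -0.4 ± 0.67 (SD, exact sign-flip permutation p = 0.0898). Without the 2 lines near 0 for E-cadherin it was -0.5 ± 0.56, lower in 7 of 7 including the 4 lines in which a decrease was not detectable (exact permutation p = 0.0156, the smallest that 7 lines allow). With ΔHD2/- lines 2 and 3 averaged it was -0.44 over 8 lines (exact permutation p = 0.109). Limma gave -0.44 ± 0.19 (SE) with an adjusted p of 0.13, and leaving out each line gave estimates of -0.62 to -0.27. By genotype the limma estimate for the ΔHD1/fl lines was -0.49 ± 0.41, that for ΔHD1/- 0.08 ± 0.41, that for ΔHD2/fl -1.26 ± 0.41 (adjusted p = 0.307) and that for ΔHD2/- -0.1 ± 0.33. The shares of all genes called in these comparisons were 0.211%, 1.43%, 0.286% and 0.806%, and none of the 4 feedback genes was among them. Between Wnt3a and TGFβ directly, Axin2 differed by 4.66 ± 0.19 (adjusted p = 1.36e-10).

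Rnf43 was not higher with TGFβ in any line. Its levels were 0.757 and 0 CPM in ΔHD1/fl, 0 and 0 CPM in ΔHD1/-, 0.227 and 0.888 CPM in ΔHD2/fl, and 1.02, 0.961 and 1.33 CPM in ΔHD2/-. It was lower than without cytokine in 8 lines, and in ΔHD1/- line 2 both libraries held 0 reads. The mean within-line difference was -0.3 ± 0.23 (SD, exact sign-flip permutation p = 0.00781, or 0.0156 with ΔHD2/- lines 2 and 3 averaged), against -0.3 ± 0.29 (SE) by limma with an adjusted p of 0.528. The 95% exact counting interval of the ratio excluded 1 in ΔHD2/fl lines 1 and 2, ΔHD2/- line 1 and ΔHD1/- line 1.

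Znrf3 with TGFβ ranged from 24.4 to 61.6 CPM (median 37.8), which overlapped its untreated range. The mean within-line difference was at 0 (SD 0.18, exact sign-flip permutation p = 0.965), with 5 lines higher and 4 lower. Apcdd1 moved in opposite directions in different lines. In ΔHD1/- line 1 it went from 26.9 to 6.99 CPM (ratio 0.26, 95% exact counting interval 0.219 to 0.308), and in ΔHD1/- line 2 from 11.2 to 78.7 CPM (ratio 7, 6.27 to 7.83). In ΔHD1/fl line 1 it went from 1.37 to 5.93 CPM, and in ΔHD2/fl line 2 from 10.5 to 5.97 CPM. These single-line changes exceeded counting error, but the mean over the 9 lines was 0.33 ± 1.28 (SD, exact sign-flip permutation p = 0.465), or -0.06 ± 1.03 without the 2 lines near 0 for E-cadherin (exact permutation p = 0.844), and the limma estimate 0.36 ± 0.81 (SE, adjusted p = 0.803).

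The third question was whether loss of the floxed wild-type allele changed the feedback genes. The deposited values are counts over whole genes, which do not show the allele that was read, so Bcl9 and Bcl9l do not check the genotypes. Without cytokine Bcl9 was at 34.0 and 66.0 CPM in ΔHD1/fl and 44.5 and 67.8 CPM in ΔHD1/-, and at 35.3 and 55.2 CPM in ΔHD2/fl and 43.8, 54.1 and 52.8 CPM in ΔHD2/-, so that the groups overlapped in both families. Bcl9l was at 172 and 323 CPM in ΔHD1/fl and 318 and 184 CPM in ΔHD1/-. In ΔHD2/fl it was at 209 and 255 CPM, above the 181, 149 and 138 CPM of ΔHD2/-.

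With Wnt3a, Axin2 was lower in recombined lines than in fl lines of both families. The ΔHD1/fl lines reached 80.8 and 57.4 CPM against 32.9 and 13.5 CPM in ΔHD1/-, a 2.98-fold difference of the means. The ΔHD2/fl lines reached 72.7 and 78.0 CPM against 17.7, 21.0 and 18.4 CPM in ΔHD2/-, a 3.96-fold difference. The 4 fl lines and the 5 recombined lines did not overlap.

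As the mean over both families, the limma difference in Axin2 with Wnt3a was -1.79 ± 0.28 (SE, adjusted p = 0.00422), in a comparison in which 0.452% of genes were called. An exact permutation of alleles among lines within each family gave p = 0.0167, the smallest p possible with 60 assignments. Like the other exact tests between recombined and fl lines, it treats the lines as independent and uses no pairing. The methods, however, describe making recombined lines from cells with 1 floxed and 1 mutant allele. With ΔHD2/- lines 2 and 3 averaged the difference was -1.8 and the exact permutation p was 0.0556, the smallest that this design allows. Without the 2 lines near 0 for E-cadherin it was -1.6 (exact permutation p = 0.05). The limma call was lost with cell line as a random effect (adjusted p = 0.0875) and in edgeR on the recovered reads (adjusted p = 0.27), over a range of 0.000486 to 0.298 in all alternatives, while every alternative kept the direction. For ΔHD2 alone the difference was -1.93 ± 0.37 (adjusted p = 0.0153, with 0.686% of genes called). For ΔHD1 alone it was -1.64 ± 0.41 (adjusted p = 0.345, with 0.0452% of genes called). The ΔHD2 call was lost with lines 2 and 3 averaged (adjusted p = 0.133) and without any 1 of the ΔHD2/fl lines or of ΔHD2/- lines 2 and 3 (adjusted p up to 0.213).

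**Figure D3:**
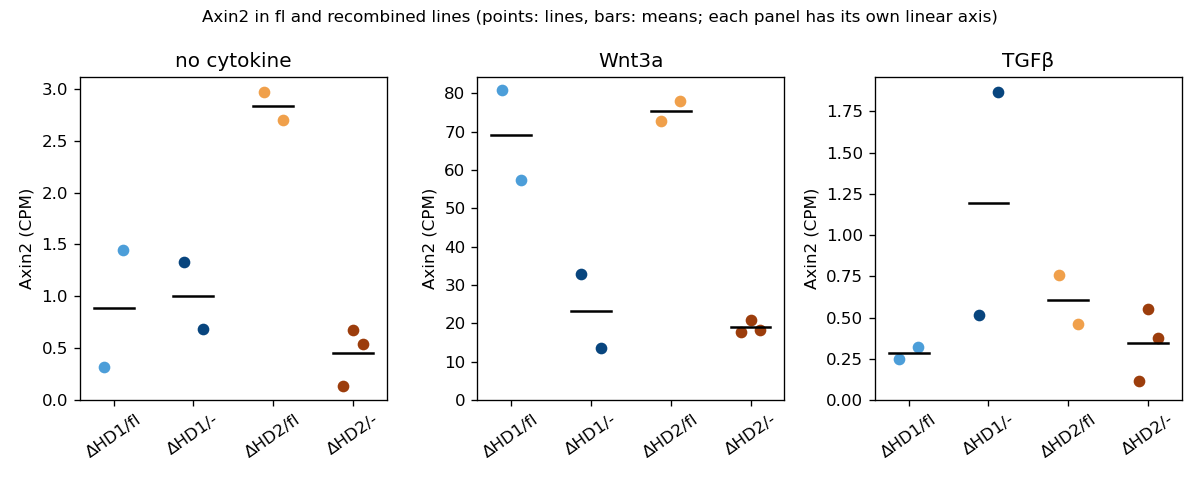
Axin2 in CPM on linear axes that differ between panels, for lines without cytokine, with Wnt3a and with TGFβ, by genotype; points are lines and bars are group means. With Wnt3a the 4 fl lines lie between 57.4 and 80.8 CPM and the 5 recombined lines between 13.5 and 32.9 CPM.

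Without cytokine Axin2 was also lower in ΔHD2/- (0.45 ± 0.284 CPM, SD, n = 3) than in ΔHD2/fl (2.84 ± 0.192, n = 2), with no overlap, and limma gave -1.42 ± 0.37 (SE, adjusted p = 0.137), or -1.51 ± 0.45 with ΔHD2/- lines 2 and 3 averaged (adjusted p = 0.584). ΔHD1/- (1.0 ± 0.455 CPM, n = 2) and ΔHD1/fl (0.887 ± 0.802, n = 2) overlapped. The mean over families was -0.64 ± 0.28 (adjusted p = 0.813, exact permutation p = 0.133, or 0.222 with those lines averaged), and 0.188% of genes were called. With TGFβ it was 0.22 ± 0.28 (adjusted p = 0.984, exact permutation p = 0.65), with 0.0904% called. The size of the Axin2 response to Wnt3a differed between recombined and fl lines by -1.14 ± 0.39 (SE) as the mean over families, which limma did not call (unadjusted p = 0.00912, adjusted p = 1; 0.0151% of genes called). The exact permutation p for this difference was 0.0333, and 0.0556 with ΔHD2/- lines 2 and 3 averaged. Without the 2 lines near 0 for E-cadherin it was -1.3 (exact permutation p = 0.1). By family it was -1.78 ± 0.58 for ΔHD1 and -0.51 ± 0.53 for ΔHD2 (both adjusted p = 1). As plain ratios of Wnt3a to no cytokine, the Axin2 responses were 135, 31.1 and 33.8 in ΔHD2/- lines 1 to 3, all above the 24.4 and 28.9 of the ΔHD2/fl lines, and 24.8 and 19.7 in ΔHD1/-, both below the 252 and 39.5 of ΔHD1/fl. The direction of the ΔHD2 difference in response thus depended on the scale, and it was 0.61 at a pseudocount of 0.1 and 0.62 in edgeR. The mean over families was -0.73 and -0.61 there.

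For the other 3 genes no difference between recombined and fl lines was called. Under Wnt3a the limma mean over families was -0.69 ± 0.41 (SE) for Rnf43 (adjusted p = 0.876), 0.12 ± 0.3 for Znrf3 (adjusted p = 0.985) and -1.34 ± 1.14 for Apcdd1 (adjusted p = 0.954). Leaving out each line gave -1.22 to -0.16, -0.14 to 0.38 and -2.02 to -0.77, in the same order. Rnf43 with Wnt3a averaged 2.13 ± 2.77 CPM (SD) in ΔHD1/fl and 0.46 ± 0.536 CPM in ΔHD1/-, and 4.03 ± 4.22 CPM in ΔHD2/fl and 1.73 ± 0.465 CPM in ΔHD2/-, so that the spread within fl lines was as large as their means. Znrf3 averaged 39.7 ± 19.2 CPM in ΔHD1/fl and 51.9 ± 26.0 CPM in ΔHD1/-, and 50.5 ± 22.7 CPM in ΔHD2/fl and 43.9 ± 3.19 CPM in ΔHD2/-. The groups of both genes overlapped in both families. For Apcdd1 the 2 ΔHD2/fl lines with Wnt3a (19.4 and 33.6 CPM) were above the 3 ΔHD2/- lines (17.0, 0.0415 and 0.107 CPM). The ΔHD2 difference was -3.27 ± 1.54 (unadjusted p = 0.0476, adjusted p = 0.571) and came from ΔHD2/- lines 2 and 3, which also lacked Apcdd1 without cytokine and resembled each other throughout. With those 2 lines averaged it was -2.6 ± 1.7 (adjusted p = 1).

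The Apcdd1 response to Wnt3a was smaller in recombined lines by -0.92 as the mean over families (exact permutation p = 0.0333, or 0.111 with ΔHD2/- lines 2 and 3 averaged, limma adjusted p = 1). Those 2 lines, at or near the counting limit, had too few reads for a response to be detectable at this depth. The corresponding differences in response were -0.64 for Rnf43 (exact permutation p = 0.15) and -0.02 for Znrf3 (exact permutation p = 0.983). A total of 20 such differences were tested for the 4 genes. In the response to TGFβ none of the 4 genes was called between recombined and fl lines, and neither was any other gene by limma (0%, with 252 genes at an unadjusted p of at most 0.05) or by edgeR (0 genes), while 7 genes were called with the line block. The TGFβ response of Axin2 differed by 0.86 ± 0.39 (SE, exact permutation p = 0.0833, or 0.111 with ΔHD2/- lines 2 and 3 averaged).

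The rest of the pathway was described with 5 lists, which do not include the 4 genes. Of 24 receptor-level feedback genes and secreted antagonists, 10 passed the filter, and none was called in the mean response to Wnt3a (median log2 difference -0.19, against -0.06 for all genes). In the blocked fit, which called 32 of 13270 genes, 1 of the 10 rose, Notum, a secreted carboxylesterase that inactivates Wnt ligands. Its median went from 36.4 CPM to 203 CPM with Wnt3a, higher in 9 of 9 lines, with a difference of 2.16 ± 0.52 (SE, adjusted p = 0.322, or 0.00298 with the line block), and it was also called without ΔHD1/fl line 2. Notum fell with TGFβ to a median of 1.17 CPM, lower in 9 of 9 lines, by -3.99 ± 0.52 (adjusted p = 0.000117). It was the only 1 of the 10 called under TGFβ, against 5.42% of all genes, and the list had a median of -0.6. With the block 3 of the 10 were called as lower, against 783 of 13270 genes called as lower (Notum and, named after their values were seen, Sfrp1 and Sostdc1).

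Of 25 Wnt receptor and R-spondin pathway genes, 21 were tested and none was called with Wnt3a (median -0.04). With TGFβ the receptor Fzd7 fell by 1.68 on the log2 scale (SE 0.44, adjusted p = 0.0147), and the R-spondin receptor Lgr4 fell by 1.25 (SE 0.36, adjusted p = 0.0249), and the list median was -0.12. These 2 of 21 stand against 5.42% of all genes, and both were lower in 9 of 9 lines. With the line block Lgr6, another R-spondin receptor named after its values were seen, was called as well, as higher. Lgr4 was not called with ΔHD2/- lines 2 and 3 averaged or in edgeR, which called Fzd7 as lower and Fzd2 and Fzd5 as higher, with a list median of 0.03. Over all genes edgeR called 855 of 13270 with TGFβ. By limma none of the 16 genes of the destruction complex and β-catenin turnover was called under either cytokine, while edgeR called 1 of them, Csnk1e, as higher with TGFβ, near its share over all genes (limma medians -0.08 with Wnt3a and -0.1 with TGFβ). Of the 12 genes of the nuclear β-catenin complex none was called under either cytokine (medians -0.1 and -0.17), and Tcf7, a TCF/LEF factor, differed between Wnt3a and TGFβ by 1.2 ± 0.18 (SE, adjusted p = 0.000366). It was 1 of the 12 so called, against 5.19% of all genes. Tcf7 had a median of 36.9 CPM with Wnt3a, 20.7 CPM without cytokine and 14.3 CPM with TGFβ. With the line block Lef1, named after its values were seen, was called there as well, as lower with Wnt3a, among 1155 of 13270 genes.

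Of 20 other Wnt target genes 12 were tested. None was called with Wnt3a (median 0.06), and 6 were called with TGFβ, 4 higher and 2 lower, against 5.42% of all genes. The list median was 0.31, and 1.43 in edgeR, which called the same 6 genes. With the line block Ephb2, named after its values were seen, was called in addition. The matricellular gene Ccn4 rose by 4.41 ± 0.7 (SE, adjusted p = 0.000515) and the Notch ligand Jag1 by 3.98 ± 0.32 (adjusted p = 1.03e-06). The endothelin gene Edn1 (1.71 ± 0.36, adjusted p = 0.0041) and the adhesion receptor Cd44 (1.35 ± 0.38, adjusted p = 0.0211) also rose, though Cd44 was not called without ΔHD1/- line 2. Id2, an inhibitor of helix-loop-helix factors, changed by -2.78 ± 0.32 (adjusted p = 4.72e-05) and the ephrin receptor Ephb3 by -1.62 ± 0.22 (adjusted p = 0.000185). In the fit with the line block Id2 was also called as lower with Wnt3a, with a difference of -1.44 (adjusted p = 0.049, against 0.265 without the block).

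**Figure D4:**
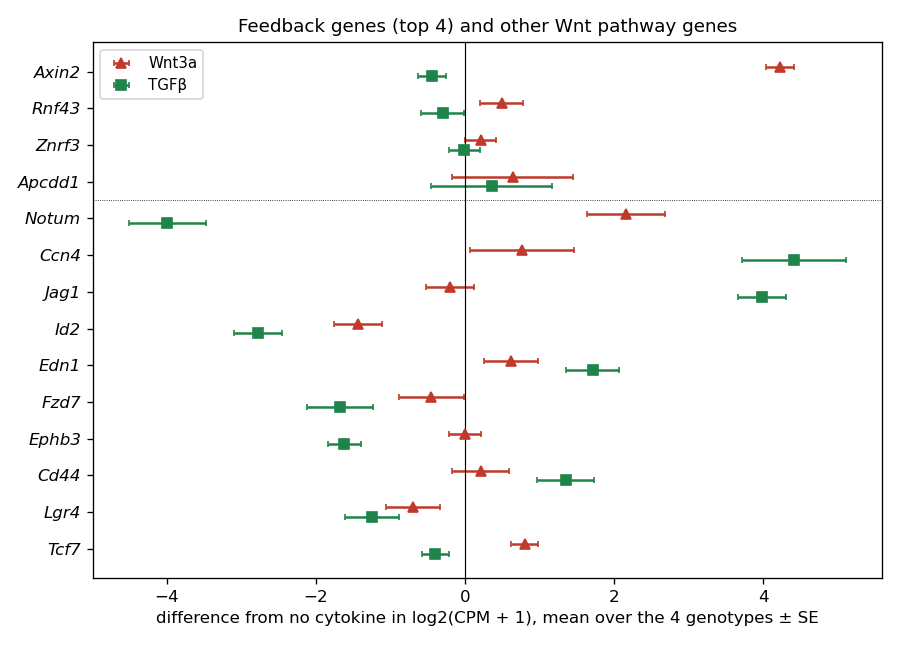
Limma difference from no cytokine in log2(CPM + 1), as the mean over the 4 genotypes ± SE, for the 4 feedback genes above the dotted line and for the 10 genes of the other pathway lists called under a cytokine or between the cytokines. Axin2 (4.22) and Notum (2.16) stand to the right with Wnt3a, and Notum (-3.99) lies far to the left with TGFβ.

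Genes with the most similar responses were sought among the 13270 genes over 18 within-line responses, 9 with each cytokine. The 2 responses of a line share its untreated library, and the points share libraries and depth, so these correlations describe the data only. For Axin2 the highest Pearson r were with Rab3d (0.95), Lrch4 (0.946) and Sbsn (0.945). Within the 9 Wnt3a responses alone they were 0.748, 0.568 and 0.842, so that much of the likeness came from the contrast between the cytokines. The medians without cytokine, with Wnt3a and with TGFβ were 23.2, 23.6 and 7.15 CPM for Rab3d and 71.5, 87.4 and 43.6 CPM for Lrch4. For Sbsn they were 42.7, 85.1 and 4.5 CPM. The genes most like Rnf43 were Slc30a2 (0.906), Mpig6b (0.883) and Ly6g6e (0.876), none above 8.65 CPM in any library. Znrf3 was most like Zbtb18 (0.848), Slc25a27 (0.816) and Hdac4 (0.803), and Apcdd1 most like Prkab2 (0.857), Npnt (0.855) and Rabgef1 (0.846).

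Among the 4 genes themselves the highest r was between Axin2 and Rnf43, 0.763 over the 18 responses, 0.672 within Wnt3a and 0.496 within TGFβ. Rnf43 and Apcdd1 gave 0.48 over all 18 and 0.812 within the 9 Wnt3a responses. Znrf3 stood apart from the others within Wnt3a, with r of -0.236 to Axin2, -0.51 to Rnf43 and -0.365 to Apcdd1. It did not do so within TGFβ, where these r were 0.508, 0.736 and 0.32.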

How the data were processed

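RNA-seq libraries of 27 cultures (9 cell lines, 3 treatments) were used. From stranded mRNA libraries, the authors mapped single reads to mm10 with STAR, kept those with a unique hit, and assigned them to RefSeq exons with QuasR. The deposited table held CPM values, reads per 1000000 assigned reads, without further scaling by the authors. All values were whole multiples of 1 read (within 0.01 reads, 100% of values in each library), so reads were recovered for counting intervals and for edgeR 4.0.16, which called 3 genes in the mean response to Wnt3a and 855 in that to TGFβ.

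Genes that did not reach 1 CPM in 2 or more libraries were left out, and the other 13270 were tested with limma 3.58.1 in R 4.3.3 (trend, robust) after log2(CPM + 1), a pseudocount of 1. A single fit of 12 group means to the 27 libraries had no block, with Benjamini-Hochberg adjustment over all genes tested. Exact tests were two-sided. Replicates were cell lines from different mice per the labels. The paper's supplement describes cells of the fl genotypes from 2 different tumours and recombined lines made by Cre infection, so lines may share an origin. Libraries of 1 line deviated together from their group means (correlation 0.509 to 0.94), since the replicate number names the line, and the treatment comparisons were repeated with a block for the line. The fit was tested on simulated data. Alternatives changed the pseudocount, filter, scaling, samples, block, tool and thresholds, left out each line, and averaged ΔHD2/- lines 2 and 3. The averaged exact tests, the exact tests without ΔHD1/fl line 2 and ΔHD1/- line 2, and the block by number within family were added after seeing the data.

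The 4 genes, the gene lists and the motifs were chosen with earlier results of these data known. Other genes were named if called in the mean response to Wnt3a or TGFβ, or between Wnt3a and TGFβ, within 5 Wnt pathway lists, plus Bcl9 and Bcl9l and the 3 genes most correlated with each member. Of 24454 Entrez identifiers 24374 matched a symbol. Coordinates are RefSeq positions on GRCm38.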

Additional observations from a re-analysis of the deposited data

Results flagged for a closer look

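The Axin2 response to Wnt3a was smaller in recombined than in fl lines by -1.14 on the log2(CPM + 1) scale (exact permutation p = 0.0333 over 60 assignments, or 0.1 without the 2 lines near 0 for E-cadherin, limma adjusted p = 1), a difference between groups that was itself tested and that turned direction within ΔHD2 at a pseudocount of 0.1 (0.61). The Apcdd1 response to Wnt3a differed in the same way by -0.92 (exact permutation p = 0.0333, limma adjusted p = 1), with 2 of the 5 recombined lines at or near the counting limit. Znrf3 moved in opposite directions with TGFβ in the fl lines of the 2 families, with a mean of 0.16 in ΔHD1/fl, where both lines were higher, and -0.29 in ΔHD2/fl, where both were lower. This last difference was not tested. No line stood apart from the other 8 in any of the 8 sets of within-line responses by Dixon's test at the 95% level.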

How the results depend on the processing

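For 28 results on the 4 genes, 489 of 532 recomputed values kept their direction and side of the threshold. The mean Axin2 response to Wnt3a was called in every alternative (4.04 to 5.29). The lower Axin2 of recombined lines with Wnt3a lost its call with a random effect or with only the compared groups (-1.79 in both), in edgeR (-1.81) and at a pseudocount of 0.1 (-1.84), and leaving out each line gave -2.09 to -1.48. For ΔHD2 alone the call was lost with a random effect and with only the compared groups (-1.93), with lines 2 and 3 averaged (-1.95), in edgeR (-2.02) and at a pseudocount of 0.1 (-1.98), and leaving out lines gave -2.0 to -1.88. For ΔHD1 alone it was gained by the unadjusted threshold (-1.64) and without ΔHD1/fl line 2 or ΔHD1/- line 1 (leaving out lines gave -2.26 to -1.03). The Axin2 response to Wnt3a with only the compared groups was not called in ΔHD1/fl (5.26), ΔHD1/- (3.48), ΔHD2/fl (4.31) or ΔHD2/- (3.8), nor in edgeR in ΔHD1/- (4.57) and ΔHD2/fl (4.79), nor at a pseudocount of 0.1 in ΔHD1/- (4.32, leaving out lines 3.11 to 3.86). The causes were not tested.

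The unadjusted threshold (p of at most 0.05 and 1.5-fold) gained Axin2 without cytokine (-0.64), its difference in response to Wnt3a (-1.14 over both families and -1.78 in ΔHD1) and to TGFβ (0.86), and Rnf43 between Wnt3a and TGFβ (0.79), which edgeR also called (3.11). Reversed in sign, and never called, were the difference in Axin2 response to Wnt3a in ΔHD2 (0.61 at a pseudocount of 0.1 and 0.62 in edgeR), Znrf3 with TGFβ in edgeR (0.15) and with median-of-ratios scaling (0.16; leaving out lines -0.03 to 0.01), and, on leaving out lines, Znrf3 (-0.14 to 0.38) between recombined and fl lines with Wnt3a, Axin2 (-0.01 to 0.45) between them with TGFβ, Apcdd1 with TGFβ (-0.2 to 0.92) and Apcdd1 between Wnt3a and TGFβ (-0.18 to 0.73).

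Genes called in the mean response to Wnt3a numbered 3, 32 with the cell line as replicate block, 51 with a random effect, 5 without the filter or without the fold limit, 304 at the unadjusted threshold, and 1 (without ΔHD1/- line 1) to 81 (without ΔHD1/fl line 2) on leaving out lines, with 9 without ΔHD1/fl line 1 and 14 without ΔHD2/- line 1. With TGFβ they numbered 719 (247 higher, 472 lower), 634 with median-of-ratios scaling (318 higher, 316 lower), 1184 with the block, 1169 with a random effect, 2234 without the fold limit, 2161 unadjusted, and 457 and 464 without either ΔHD2/fl line. Between Wnt3a and TGFβ 689 were called, 1155 with the block, 1153 with a random effect, 1908 without the fold limit, 2078 unadjusted, and 425 and 428 without either ΔHD2/fl line. Between recombined and fl lines with Wnt3a 60 were called, 0 with the compared groups only, 4 in edgeR, 16 with lines averaged, 23 with a random effect, 600 unadjusted, and 17 (without ΔHD2/- line 2) to 316 (without ΔHD1/fl line 2) on leaving out lines, with 18 without ΔHD2/- line 3, 33 without ΔHD2/fl line 2, 135 without ΔHD1/fl line 1 and 245 without ΔHD2/- line 1. With the replicate block the mean Axin2 response stayed at 4.22, and the block changed no call of the 4 genes. The methods describe making recombined lines by Cre infection of cells with 1 floxed and 1 mutant allele. Whether fl and recombined lines of the same number come from 1 tumour is not given in the sources used here. Their deviations correlated at 0.087 to 0.472, highest in ΔHD1 without cytokine, where both lines numbered 2 were near 0 for E-cadherin, and a replicate block on the number gave 119 calls and an Axin2 difference of -1.8.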
